A study of Mus musculus with 24 samples.

Results

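This account covers 1 comparison in mouse cortical neurons: what the BET inhibitor IBET858 added to the response to BDNF within 2 h. Its members were the 3 arrays titled BDNF, IBET858 at 2 h and the 3 arrays titled BDNF at 2 h, so 6 of the 24 arrays of the series, and the comparison was read across all 18194 genes tested. Primary cortical neurons were taken at embryonic day 18 and kept for 1 week in culture. One set of cultures then received BDNF at 50 ng per ml together with IBET858 at 1 µM for 2 h, and the cultures they were set against received BDNF at 50 ng per ml without IBET858 for 2 h. The other groups used here were IBET858 at 1 µM without BDNF at 2 h, the solvent DMSO at 2 h, and the same 4 treatments at 12 h, with 3 arrays each. All groups shared this kind of culture and its age, and the labels give no strain and do not say whether the 3 arrays of a group came from separate cultures. The p-values therefore measure the spread between these arrays, which may be technical.

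BDNF, brain-derived neurotrophic factor, is a secreted protein that binds the receptor TrkB on neurons and activates the MAP kinase, PI3 kinase and phospholipase C pathways. Within minutes to hours this switches on activity-induced genes, first transcription factors such as Fos and Egr1 and then effector genes such as Bdnf itself. BET proteins, such as Brd2 and Brd3, read acetylated lysines on histones with their bromodomains, and the family helps the kinase complex P-TEFb, made of Cdk9 and a cyclin T, to release paused RNA polymerase II. Hexim1 holds P-TEFb in an inactive complex, and its induction is a familiar mark of BET inhibition in other cells.

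The values are log2 intensities in which each probe set had been centred on its median over the 24 arrays. A centred value of 1 thus stands for an array at 2-fold the median of that probe set, and the table holds differences between arrays but no levels. For that reason the cell type named in the labels could not be checked against the abundance of its markers. Around their group means the 6 arrays spread with a standard deviation of 0.072 to 0.0989 log2 units over genes. Replicate 1 of DMSO at 2 h spread by 0.178, and replicate 3 of IBET858 at 12 h by 0.157, and these 2 stood apart. Neither is a member, but both enter the spread shared by all 24 arrays in the fit, and so every error and call. The first also enters every value set against DMSO at 2 h. Those values are also given from a fit without both arrays where this ends a call or moves the value by over 1.5-fold. On BDNF with IBET858 replicate 1 the poly-A control transcripts, spiked into the RNA before labelling, were at 0.507, against -0.0944 to 0.0925 on the other 5 arrays.

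Adding IBET858 to BDNF for 2 h changed genes in both directions. Of 18194 genes, 2212 rose (12.2%) and 2716 fell (14.9%) at an adjusted p under 0.05 (limma, Benjamini-Hochberg over all genes), and 6759 had an unadjusted p under 0.05. Changes over 1.5-fold were found in 477 genes that rose (2.62%) and 772 that fell (4.24%). The median log2 change over all genes was 0.05. Without BDNF with IBET858 replicate 1 the counts were 2077 and 2470, and without the 2 arrays that stood apart they were 3012 and 3155. List counts given below without these 2 arrays belong beside 3012 and 3155 of 18194 genes, and not beside 12.2% and 14.9%. Among the 14 genes that rose furthest were the histone genes H2bc18 and H3c4 and the P-TEFb inhibitor gene Hexim1. Among the 14 that fell furthest were Cxcr4, Nab2, Rrad and the potassium channel subunit genes Kcnf1, Kcns2 and Kcna4.

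The promoters of the 2 highest and the 2 lowest of these genes that have one in the RefSeq table are shown first, since these genes carry both ends of the response. Each stretch covers 300 bases around the start of the gene, most of them before it, from RefSeq's build GRCm38.p6. Capitals mark matches on either strand to any of 6 motifs: the box spelled TATAAA, the promoter element spelled CCAAT, the GC box GGGCGG, the cyclic AMP element TGACGTCA, the AP-1 element TGANTCA and the serum response element.
H2bc18 (chr3:96269450-96269749, + strand): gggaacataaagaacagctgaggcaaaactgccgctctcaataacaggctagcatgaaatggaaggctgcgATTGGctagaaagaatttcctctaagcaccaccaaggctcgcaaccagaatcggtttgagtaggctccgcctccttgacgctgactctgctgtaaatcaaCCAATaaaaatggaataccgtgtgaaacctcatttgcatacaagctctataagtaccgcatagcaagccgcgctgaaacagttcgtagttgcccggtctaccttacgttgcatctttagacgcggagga
Rcc1 (chr4:132345701-132346000, - strand): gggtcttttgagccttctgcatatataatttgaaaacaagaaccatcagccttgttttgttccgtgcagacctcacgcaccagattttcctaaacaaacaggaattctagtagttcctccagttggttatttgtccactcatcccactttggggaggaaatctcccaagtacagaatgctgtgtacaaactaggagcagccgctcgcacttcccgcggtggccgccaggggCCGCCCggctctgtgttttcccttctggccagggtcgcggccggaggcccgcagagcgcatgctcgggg
Cxcr4 (chr1:128592250-128592549, - strand): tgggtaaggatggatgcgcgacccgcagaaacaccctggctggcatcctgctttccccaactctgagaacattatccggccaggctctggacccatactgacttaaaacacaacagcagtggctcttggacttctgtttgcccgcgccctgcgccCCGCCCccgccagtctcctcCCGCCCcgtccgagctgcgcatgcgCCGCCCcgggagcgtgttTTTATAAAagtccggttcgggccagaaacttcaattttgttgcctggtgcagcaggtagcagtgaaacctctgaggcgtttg
Nab2 (chr10:127666654-127666953, - strand): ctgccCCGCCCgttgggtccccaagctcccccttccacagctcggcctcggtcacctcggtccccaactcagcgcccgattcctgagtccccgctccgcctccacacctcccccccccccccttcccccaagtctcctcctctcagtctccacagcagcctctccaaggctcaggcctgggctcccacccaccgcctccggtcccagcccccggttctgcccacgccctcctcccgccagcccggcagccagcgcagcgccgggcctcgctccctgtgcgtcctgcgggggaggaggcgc
H2bc18 held 2 CCAAT matches, a motif found in 37.9% of the 27025 promoters of this length. Rcc1 and Nab2 each held 1 GC box, and Cxcr4 held 3, where 35.9% of all promoters hold at least 1. Cxcr4 also held TATAAA, at 2 overlapping matches on opposite strands, where 14.2% of all promoters hold it. None of the 4 stretches held TGACGTCA (1.88% of all promoters), TGANTCA (7.93%) or the serum response element (1.57%). No match overlapped a match to another motif. These are matches of letters in these windows and nothing more.

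H2bc18, which encodes a histone H2B, rose furthest of the named genes. Its centred values were 1.87, 1.83 and 1.79 with BDNF and IBET858, against -3.04, -2.47 and -3.17 with BDNF, a log2 change of 4.72 ± 0.23 (SE of the fit, n = 3 arrays per group; 26.4-fold; adjusted p = 5.83e-13). The groups lay far apart, and the 3 BDNF arrays were the ones that spread. Rcc1, the chromatin-bound exchange factor for the GTPase Ran, stood at 2.80, 2.89 and 2.98 with both agents and at -0.91, -0.76 and -0.80 with BDNF (3.71 ± 0.072; 13.1-fold; adjusted p = 6.25e-19). Caprin2, an RNA-binding protein gene, stood at 3.53, 3.51 and 3.76 with both agents and 0.02, -0.16 and -0.09 with BDNF (3.67 ± 0.084; 12.8-fold). Neither gene's groups came near each other. Pecam1, the adhesion molecule CD31 of endothelial cells and platelets, was at 3.48, 3.61 and 3.40 with both agents and -0.31, -0.02 and -0.10 with BDNF (3.64 ± 0.12; 12.4-fold; adjusted p = 2.01e-15). Each of these 4 genes rests on 1 probe set.

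The highest 14 were picked from called genes whose groups did not overlap, so that separation is no result. A further 10 genes completed them, with log2 changes between 2.78 and 3.56. They were Depdc7 (3.56 ± 0.14), the mitotic spindle gene Fam83d (3.44 ± 0.10), the histone H3 gene H3c4 (3.43 ± 0.17), the mitochondrial creatine kinase gene Ckmt2 (3.35 ± 0.12) and Polg2 (3.29 ± 0.089), the accessory subunit of the mitochondrial DNA polymerase. Hexim1 stood at 1.32, 1.37 and 1.30 with both agents and -1.51, -1.58 and -1.55 with BDNF, a change of 2.88 ± 0.10 (adjusted p = 4.26e-15), and its 2 probe sets gave 2.14 and 3.61. Fam117a rose by 2.84 ± 0.15, Adam17, the sheddase that releases membrane-bound growth factors, by 2.83 ± 0.089, Taf4b, a variant subunit of the general factor TFIID, by 2.82 ± 0.074, and the inducible Hsp70 gene Hspa1b by 2.78 ± 0.12. Across all genes, arrays of the 2 groups did not overlap upward in 25.9% and downward in 21.1%.

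Cxcr4, the receptor for the chemokine CXCL12, fell furthest. Its centred values were 0.40, -0.19 and 0.22 with BDNF and IBET858, against 3.02, 3.06 and 3.07 with BDNF (-2.91 ± 0.16; 7.51-fold lower; adjusted p = 6.05e-12). The 3 BDNF arrays were nearly identical and the 3 arrays with both agents lay well below them. Tmem74 was at -0.64, -0.66 and -0.67 with both agents and 1.99, 2.01 and 2.08 with BDNF (-2.68 ± 0.10). Nab2, a corepressor of the EGR transcription factors, was at -0.04, -0.05 and -0.32 with both agents and 2.40, 2.22 and 2.45 with BDNF (-2.50 ± 0.14). Tent5a, a cytoplasmic poly(A) polymerase gene, fell by 2.49 ± 0.20 on the log2 scale. Rrad, a small GTPase that inhibits voltage-gated calcium channels, was at 0.95, 0.52 and 0.71 with both agents and 3.20, 2.87 and 3.19 with BDNF (-2.36 ± 0.11; adjusted p = 2.09e-13). The lowest genes too were picked from those whose groups did not overlap, so that separation is no result.

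The potassium channel subunits Kcnf1 (-2.42 ± 0.063), Kcns2 (-1.91 ± 0.088) and Kcna4 (-1.89 ± 0.11) also stood among the lowest 14. Kcnf1 and Kcns2 encode modifier subunits that form no channel alone, and Kcna4 encodes the fast-inactivating Kv1.4. Mir124a-1hg, a host transcript of the neuronal microRNA miR-124, was at -1.74, -1.89 and -2.004 with both agents and 0.60, 0.38 and 0.47 with BDNF (-2.36 ± 0.083; 5.13-fold lower). The rest were Ccsap (-2.16 ± 0.10), the RNA-binding protein gene Rbm24 (-2.01 ± 0.069), Naf1 (-1.89 ± 0.061), which assembles H/ACA ribonucleoproteins, the synaptic adhesion gene Lrrc4 (-1.85 ± 0.07) and the zinc finger gene Zfp667 (-1.83 ± 0.11). Probe sets of Tmem74 and Rbm24 differed widely in size of change but not in direction.

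**Figure D1:**
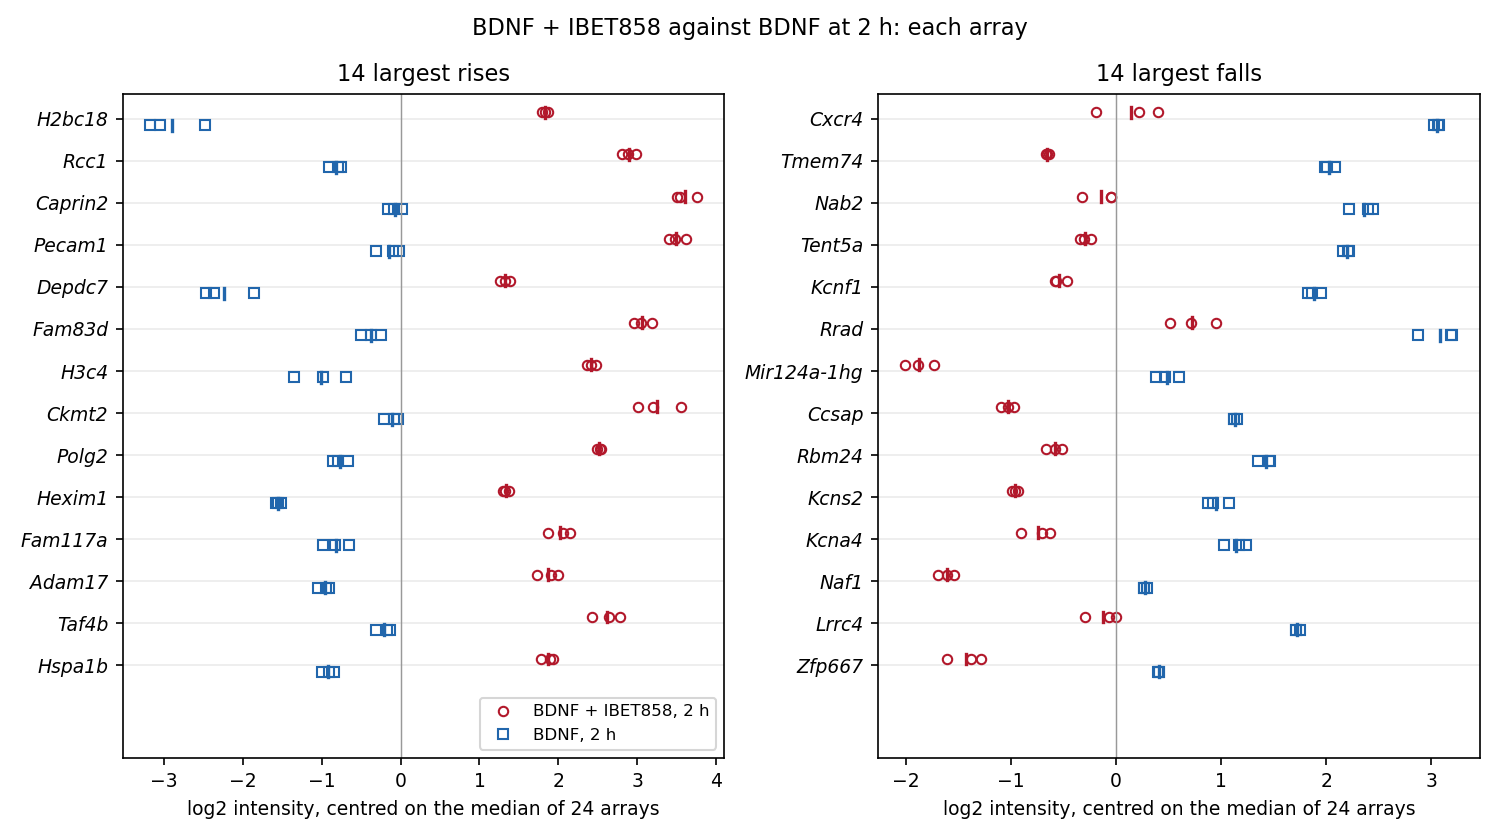
Centred log2 intensity (horizontal axis, 0 is the median of the 24 arrays) of the 14 genes that rose furthest (left) and the 14 that fell furthest (right) at 2 h. Circles are the 3 BDNF with IBET858 arrays, squares the 3 BDNF arrays and short bars the group means. The 28 genes, from H2bc18 at 4.72 to Cxcr4 at -2.91, were picked from those whose groups do not overlap.

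Set beside IBET858 without BDNF, the effect of the inhibitor was partly shared. IBET858 against DMSO at 2 h, which uses none of the 6 arrays, called 1026 genes higher (5.64%) and 1686 lower (9.27%), or 1123 and 1875 without the 2 arrays that stood apart. Of the genes that rose with BDNF present, 708 also rose without it, which is 32.0% of the first list and 69.0% of the second. Of those that fell, 1214 were shared, 44.7% and 72.0% of the lists. Called genes went in opposite directions in 44 cases and the same way in 1922. Over the 18194 genes the log2 changes had a Pearson correlation of 0.663 and a Spearman correlation of 0.522, as a description across genes that share their arrays. Fam117a (2.84 with BDNF, 2.68 without) and Hexim1 (2.88 and 2.48) rose in both. Their interaction had an adjusted p of 0.76 and 0.094, with differences (with minus without BDNF) of 0.16 ± 0.22 and 0.40 ± 0.14. Without the 2 arrays that stood apart the difference for Hexim1 was 0.56 and passed the test (adjusted p = 0.000266), and that for Fam117a was 0.25 (adjusted p = 0.612).

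The effect of IBET858 differed between cultures with and without BDNF in 1529 genes by the interaction term (8.4%), 566 with a more positive effect when BDNF was present (3.11%) and 963 with a more negative one (5.29%). Without the 2 arrays that stood apart these counts were 667 and 1055, and 497 and 883 of the genes stayed called. With array weights in the fit the counts were 1199 and 1533. Of the 566, 407 were called higher with BDNF and 149 higher without it, and 167 were called lower without BDNF. Of the 963, 886 were called lower with BDNF, 293 lower without it and 574 were called with BDNF only. Each set was picked by the sign of this difference. The choice itself thus favours rises with BDNF in the first set and falls with BDNF in the second. A call under one condition and not the other is by itself no test, and the interaction is the test used here.

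Pecam1 had the largest positive interaction. It was at 0.16, 0.22 and -0.01 with IBET858 and 0.01, -0.03 and -0.31 with DMSO, and its change without BDNF was 0.23 ± 0.12 (adjusted p = 0.227), against 3.64 with BDNF, a difference of 3.41 ± 0.17 (adjusted p = 3.09e-11). Tmem54 behaved alike in these numbers: 2.93, 2.33 and 3.19 with both agents and 0.07, 0.03 and 0.02 with BDNF, against -0.09, 0.11 and -0.07 with IBET858 and -0.10, -0.19 and -0.06 with DMSO, a difference of 2.68 ± 0.22. Only the arrays with both agents were high in these 2 genes. Rcc1 rose by 0.95 without BDNF and by 3.71 with it (difference 2.76 ± 0.10), Caprin2 by 1.01 and 3.67 (difference 2.66 ± 0.12) and Adam17 by 0.72 and 2.83 (difference 2.12 ± 0.13). Zmym1 changed by -0.24 without BDNF (adjusted p = 0.0739) and by 1.92 with it (difference 2.15 ± 0.12).

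At the other end, Rrad differed by -2.42 ± 0.15 and Ier5l by -2.38 ± 0.12. Rrad stood at -0.98, -0.93 and -0.77 with IBET858 and -0.997, -0.83 and -1.05 with DMSO, so it was low in both cultures without BDNF and its change there was 0.06 (adjusted p = 0.762). Ier5l, an immediate early gene, was at 0.90, 0.85 and 0.85 with both agents and 1.99, 1.81 and 2.05 with BDNF, against 0.81, 0.83 and 0.74 with IBET858 and -0.75, -0.30 and -0.46 with DMSO. It fell with BDNF (-1.08) and rose without it (1.30). Cxcr4 (-2.04 ± 0.23), Tmem74 (-1.95 ± 0.14), Rasl11a (-1.92 ± 0.14) and Nab2 (-1.84 ± 0.20) were the other 4 of the lowest 6. BDNF had raised all 6 of them against DMSO, by 2.45 for Ier5l, 2.95 for Cxcr4, 2.22 for Nab2 and up to 4.04 for Rrad. That contrast shares the BDNF arrays with the main one, so the values stand side by side and are no independent support for each other.

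Besides Ier5l, the genes called in opposite directions with the largest changes were Tmem168 (0.93 with BDNF, -0.40 without), Ddx23, an RNA helicase of the spliceosome (0.65 and -0.66), Mettl18 (0.63 and -0.83), Rgs16, a regulator of G protein signalling (-0.64 and 0.41), and Haus3, a subunit of the augmin complex (0.40 and -0.47). For Ddx23 the probe sets disagreed, with 1 of 2 called. For Rgs16 the rise without BDNF was no longer called without the 2 arrays that stood apart (0.23, adjusted p = 0.0976), while its interaction was -0.87 there and still called.

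**Figure D2:**
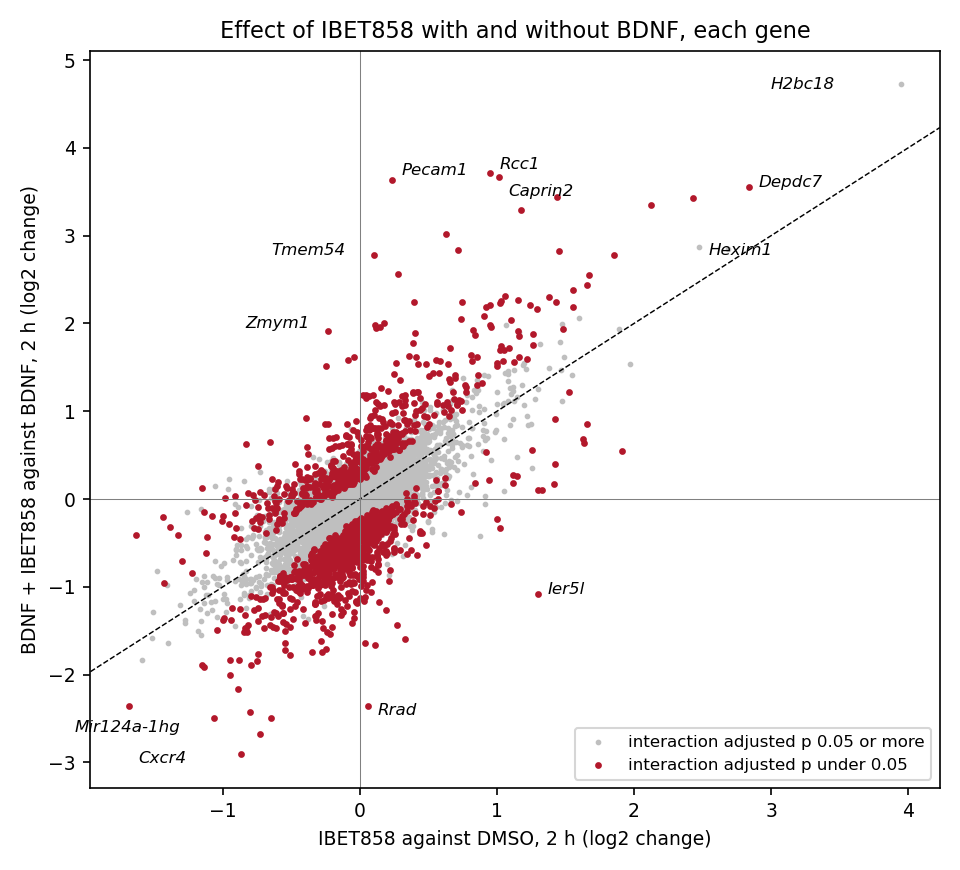
Log2 change of each of 18194 genes with IBET858 against DMSO at 2 h (horizontal axis) and with BDNF and IBET858 against BDNF at 2 h (vertical axis). Red points are the 1529 genes called in the interaction, the dashed line marks equal change, and Pecam1 (0.23 and 3.64) and Ier5l (1.30 and -1.08) lie far from it while Hexim1 (2.48 and 2.88) lies close.

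Genes that respond to BDNF were taken from the 12 h arrays, none of which enters the 2 h comparison. Of 830 genes that BDNF raised over 1.5-fold at 12 h, 348 fell (41.9%) when IBET858 was added to BDNF for 2 h and 109 rose (13.1%), against 14.9% and 12.2% of all genes. Their median log2 change was -0.17, where that of all genes was 0.05. In the interaction 248 of the 830 were more negative with BDNF (29.9%, against 5.29% of all genes) and 20 more positive (2.41%, against 3.11%). Of 1126 genes that BDNF lowered over 1.5-fold at 12 h, 87 fell and 186 rose (16.5%), with a median of 0.08. IBET858 without BDNF raised 147 of the 830 (17.7%, against 5.64% of all genes) and lowered 93 (11.2%, near the 9.27% of all genes).

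**Figure D3:**
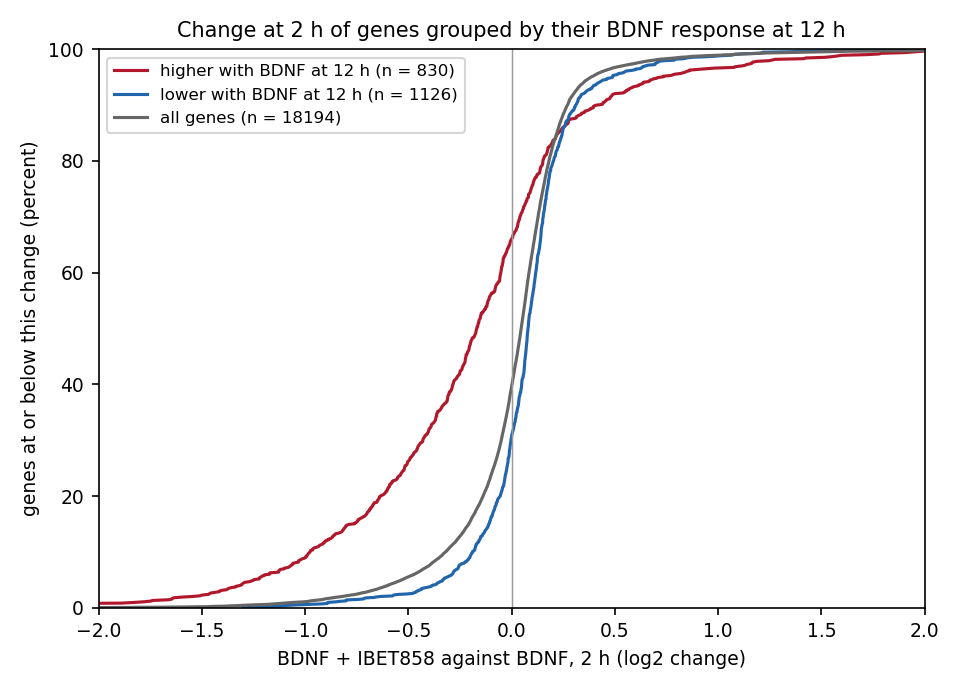
Cumulative percent of genes (vertical axis) at or below each log2 change of BDNF with IBET858 against BDNF at 2 h (horizontal axis). The curve of the 830 genes higher with BDNF at 12 h lies to the left of that of all genes among the falls, with a median of -0.17 against 0.05. The 1126 genes lower with BDNF at 12 h have a median of 0.08.

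Activity-induced transcription factors split in both directions. Of 34 measured, 14 rose (41.2%) and 10 fell (29.4%) with a median of 0.19, against 12.2% and 14.9% of all genes. BDNF against DMSO at 2 h had raised all 34, or 33 without the 2 arrays that stood apart (9.79% of all genes rose in that contrast and 18.1% fell). Klf2, a Krüppel-like factor, was at 2.23, 2.13 and 2.04 with both agents and 0.34, 0.39 and 0.29 with BDNF (1.79 ± 0.08). Junb, an AP-1 subunit, rose by 0.94 ± 0.083 and Npas4, which acts in inhibitory synapse formation, by 0.85 ± 0.21. Fos stood at 1.10, 1.14 and 1.10 with both agents and 0.68, 0.72 and 0.71 with BDNF (0.41 ± 0.073; adjusted p = 0.000154). These 4 genes were all higher with both agents, and their groups did not overlap. Klf10 was at 1.08, 0.95 and 0.98 with both agents and 2.25, 2.25 and 2.29 with BDNF (-1.26 ± 0.17), and Klf5 fell by 1.02 ± 0.10 on the log2 scale.

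Egr1 and Arc are classic immediate early genes. Egr1 stood at 1.07, 0.98 and 1.03 with both agents and 0.90, 0.97 and 0.89 with BDNF, a change of 0.10 ± 0.085 (adjusted p = 0.398), and Arc stood at 3.13, 3.03 and 3.24 with both agents and 3.01, 2.88 and 3.01 with BDNF, a change of 0.17 ± 0.14 (adjusted p = 0.383). Neither passed the test, whereas BDNF against DMSO had moved them by 2.61 and 5.59. Without BDNF, IBET858 raised both, Egr1 by 1.33 ± 0.085 and Arc by 1.42 ± 0.14. The interaction was -1.22 ± 0.12 for Egr1 and -1.25 ± 0.19 for Arc, both called. Over the list of transcription factors, 13 of 34 were called more negative with BDNF in the interaction (38.2%) and 0 more positive. The shares of all genes were 5.29% and 3.11%. Without the 2 arrays that stood apart the counts were 14 and 1.

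Among 41 activity-induced effector genes, 16 rose (39.0%) and 8 fell (19.5%), against 12.2% and 14.9% of all genes, with a median of 0.27. Serpinb2, a serine protease inhibitor, was at 3.57, 2.93 and 3.48 with both agents and 1.20, 1.37 and 1.57 with BDNF (1.95 ± 0.17), and its interaction was 1.83 ± 0.25. Gem, a GTPase related to Rrad, was at 2.21, 1.88 and 2.12 with both agents and 0.00, 0.34 and 0.17 with BDNF (1.90 ± 0.22). Both genes rose, whereas Rrad fell by 2.36. Bdnf was at -0.46, -0.48 and -0.49 with both agents and 0.88, 0.93 and 0.86 with BDNF, a change of -1.37 ± 0.26 (adjusted p = 0.000332), and its 2 probe sets gave -1.69 and -1.05. The 3 arrays of each group were nearly equal, whereas the DMSO arrays spread widely, at -1.36, 0.14 and 0.34. BDNF against DMSO raised Bdnf by 1.18 ± 0.26, or by 0.65 without the 2 arrays that stood apart (adjusted p = 0.000645). With both agents its 3 values lay close to those with IBET858 (-0.62, -0.87 and -0.53). Without BDNF, IBET858 changed Bdnf by -0.38 (adjusted p = 0.388), or by -0.91 without those 2 arrays (adjusted p = 3.46e-05). The interaction was called in neither fit, at -0.99 (adjusted p = 0.117) and -0.46 without the 2 arrays (adjusted p = 0.121). In the effector list 15 of 41 were more negative (36.6%) and 7 more positive (17.1%) with BDNF in the interaction, against 5.29% and 3.11% of all genes.

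**Figure D4:**
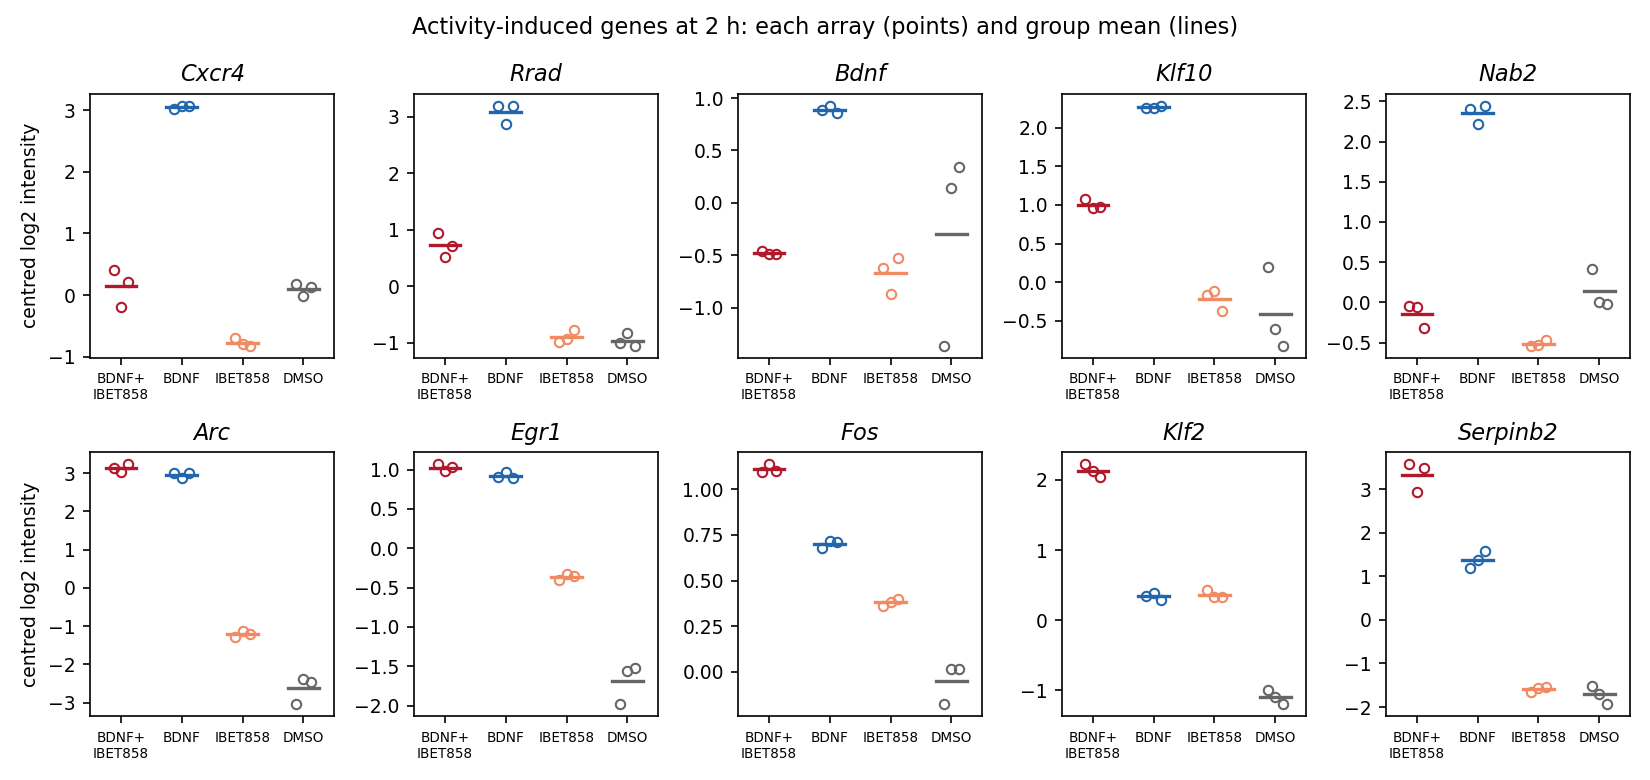
Centred log2 intensity (vertical axes, scales differ) of 10 activity-induced genes at 2 h with BDNF and IBET858, BDNF, IBET858 and DMSO. Points are arrays and lines group means; Cxcr4, Rrad, Bdnf, Klf10 and Nab2 are lower with both agents than with BDNF, Arc and Egr1 are close, and Fos, Klf2 and Serpinb2 are higher.

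Feedback regulators of the MAP kinase pathway fell more often than they rose, 12 (44.4%) against 7 (25.9%) of 27, with a median of -0.18. Over all genes 14.9% fell and 12.2% rose. Spred1, an inhibitor of Ras signalling, was at -0.52, -0.64 and -0.63 with both agents and 0.75, 0.70 and 0.78 with BDNF (-1.34 ± 0.066), and Spry2, a Sprouty inhibitor, fell by 1.32 ± 0.18. In the same list Spry1 stood at 1.03, 1.12 and 1.15 with both agents and -0.47, -0.46 and -0.65 with BDNF (1.63 ± 0.079), and Errfi1, which restrains EGF receptors, rose by 1.48 ± 0.10. Of 17 neurotrophins, their receptors and adaptors, Bdnf fell and the adaptor gene Gab1 rose (0.46 ± 0.087), 5.88% each way and below the shares of all genes. The receptor gene Ntrk2 was at 0.34, 0.26 and 0.32 with both agents and 0.23, 0.11 and 0.22 with BDNF (0.12 ± 0.055; adjusted p = 0.114), but its 8 probe sets disagreed, from -0.52 to 1.56, both called. Ngfr, the p75 receptor, was at 0.17 ± 0.079 (adjusted p = 0.133).

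Histone genes moved one way. Of 11 linker and core histone genes measured, 9 rose (81.8%, against 12.2% of all genes) and 0 fell. The median log2 change was 1.21, where that of all genes was 0.05. The list's mean centred value was 0.78 to 0.82 on the arrays with both agents and -0.86 to -0.72 on the BDNF arrays. After H2bc18 and H3c4 came H3c7 (2.38 ± 0.17) and H2ax, the variant phosphorylated at DNA breaks, at 1.28, 1.27 and 1.25 with both agents and -0.76, -0.73 and -0.64 with BDNF (1.98 ± 0.057; adjusted p = 2.38e-16). IBET858 without BDNF raised 10 of the 11 (90.9%, against 5.64% of all genes). Copies of a histone gene resemble each other so closely that these probe sets may measure more than 1 of them.

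Of 37 BET proteins and elongation regulators, 6 rose (16.2%) and 12 fell (32.4%), against 12.2% and 14.9% of all genes. Brd2 was at 0.91, 0.92 and 0.91 with both agents and -0.18, -0.18 and -0.11 with BDNF (1.07 ± 0.057; 2.1-fold), and its interaction was 0.37 ± 0.081 (adjusted p = 0.00482). Brd3 was at -0.01, -0.04 and -0.03 with both agents and -0.15, -0.11 and -0.19 with BDNF (0.12 ± 0.049; adjusted p = 0.0775). Cdk9, the kinase of P-TEFb, was at -0.51, -0.70 and -0.48 with both agents and 0.07, 0.08 and 0.02 with BDNF (-0.62 ± 0.059), and Leo1, a subunit of the PAF1 elongation complex, fell by 0.67 ± 0.089. Both cyclin T genes fell as well, Ccnt1 by 0.44 and Ccnt2 by 0.55. Hexim1 and both parts of P-TEFb thus moved in opposite directions. Myc, a common target of BET inhibitors in tumour cells, was at 0.14, 0.14 and 0.10 with both agents and 0.01, 0.12 and 0.14 with BDNF (0.04 ± 0.11; adjusted p = 0.831), and its groups overlapped. Without BDNF, IBET858 lowered Myc by 0.43 (adjusted p = 0.00689), and the interaction was 0.47 ± 0.15 (adjusted p = 0.0618), or 0.67 and called without the 2 arrays that stood apart (adjusted p = 7.9e-05).

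Of 47 genes for Mediator and RNA polymerase II, 19 fell (40.4%) and 5 rose (10.6%), against 14.9% and 12.2% of all genes. Without the 2 arrays that stood apart the counts were 20 and 8, with 3155 and 3012 over all 18194 genes. Med14 fell by 0.96 ± 0.058, Med13 by 0.85 ± 0.11 and Cdk7, the kinase of the general factor TFIIH, by 0.64 ± 0.067. Polr2a, the largest subunit of the polymerase, went the other way, at 0.66, 0.72 and 0.68 with both agents and -0.43, -0.50 and -0.38 with BDNF (1.12 ± 0.072). Of 46 genes for histone acetylation enzymes and other bromodomain proteins, 12 fell (26.1%) and 4 rose (8.70%). The acetyltransferase genes Ep300 (-0.85 ± 0.066) and Kat5 (-0.73 ± 0.073) fell, and the deacetylase gene Sirt1, at 1.33, 1.29 and 1.33 with both agents and -0.24, -0.17 and -0.35 with BDNF, rose by 1.57 ± 0.081. Atad2 rose too (1.14 ± 0.074), with probe sets from 0.52 to 2.35. Of 329 numbered zinc finger genes, 132 fell (40.1%) and 31 rose (9.42%), with a median of -0.13. The furthest were Zfp667, Zfp748 (-1.58 ± 0.13), Zfp449 (-1.39 ± 0.088) and Zfp1 (-1.38 ± 0.062). IBET858 without BDNF lowered 142 of the 329 (43.2%) and raised 11 (3.34%), against 9.27% and 5.64% of all genes. It lowered 12 of the 47 Mediator and polymerase genes (25.5%) and raised 4 (8.51%).

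**Figure D5:**
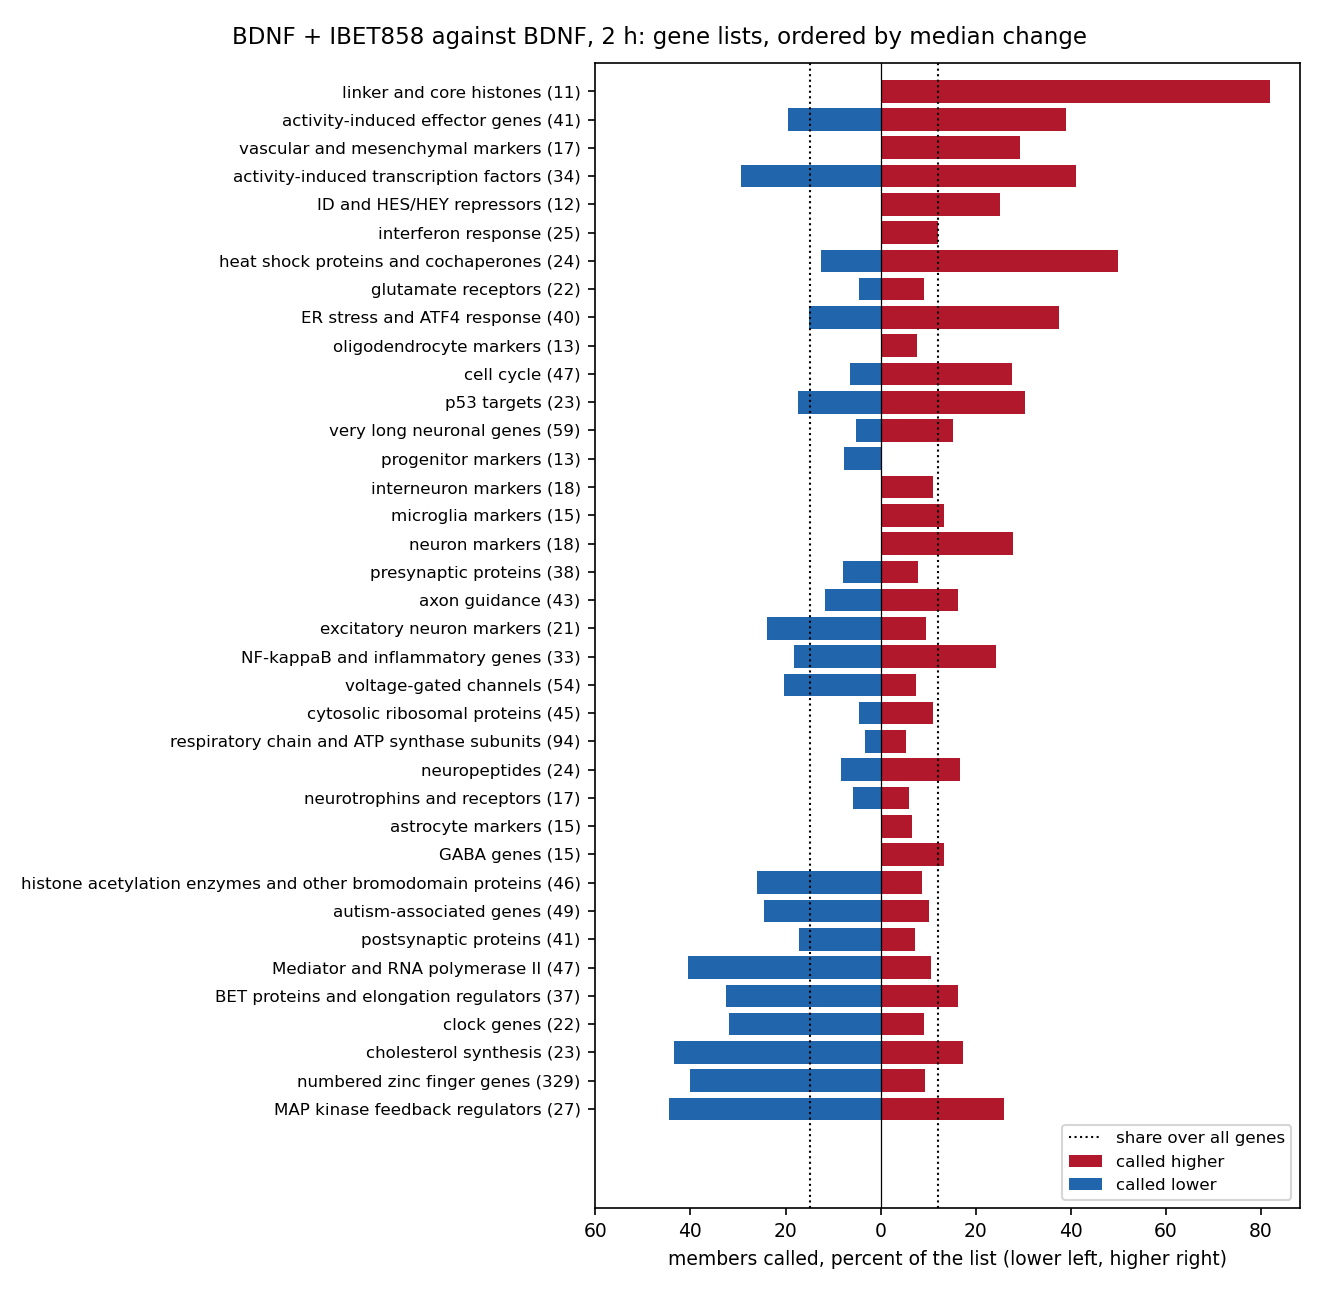
Percent of the members of each of 37 gene lists (number measured in brackets) called higher (red, to the right) and lower (blue, to the left) with BDNF and IBET858 against BDNF at 2 h, ordered by median change. Dotted lines mark the shares over all genes, 12.2% and 14.9%. Histones stand furthest to the right, and MAP kinase feedback regulators (44.4% lower), numbered zinc finger genes (40.1%) and cholesterol synthesis genes (43.5%) stand at the low end.

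Stress genes rose in part. Of 24 heat shock proteins and cochaperones, 12 rose (50%) and 3 fell (12.5%), against 12.2% and 14.9% of all genes. Hspa1a was at 1.86, 1.70 and 1.79 with both agents and -0.52, -0.30 and -0.58 with BDNF (2.25 ± 0.092), beside its near-identical neighbour Hspa1b, and their probe sets may read both. Hspb8, a small heat shock protein gene, rose by 1.55 ± 0.12 with probe sets from 0.71 to 2.70, and Dnajb5 fell by 1.08 ± 0.063. Of 40 genes of the endoplasmic reticulum stress and ATF4 response, 15 rose (37.5%) and 6 fell (15%). Ddit3, the stress factor CHOP, was at 1.41, 1.49 and 1.22 with both agents and 0.20, 0.24 and 0.20 with BDNF (1.16 ± 0.11). Dnajb9 rose by 0.98 ± 0.10 and Sesn2 by 0.87 ± 0.16, and the bZIP factor gene Cebpg fell by 1.11 ± 0.067. IBET858 without BDNF raised 16 of the 40 (40%) and lowered 1 (2.5%), against 5.64% and 9.27% of all genes. In the interaction 1 was more positive and 1 more negative.

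Among 33 NF-kappaB and inflammatory genes 8 rose (24.2%) and 6 fell (18.2%), against 12.2% and 14.9% of all genes. The subunit genes Rela, at -0.98, -0.94 and -0.98 with both agents and 0.51, 0.42 and 0.50 with BDNF (-1.44 ± 0.058), and Rel (-1.06 ± 0.11) fell. The prostaglandin synthase gene Ptgs2 fell too (-1.33 ± 0.22), with 1 of 2 probe sets called (-2.13 and -0.54), while Irf1 rose (1.25 ± 0.10). Of 25 interferon genes, 3 rose (12%, near the 12.2% of all genes) and 0 fell. The 3 were Stat2 (0.86 ± 0.086), Irf9 (0.85 ± 0.086) and Cxcl10 (0.41 ± 0.13). Cxcl10 lost its call when BDNF with IBET858 replicate 1 or 2 or BDNF replicate 2 was left out (down to 0.31, adjusted p = 0.126). Without the 2 arrays that stood apart, 5 interferon genes were called higher, as were 3012 of all 18194 genes. Of 23 p53 targets, 7 rose (30.4%) and 4 fell (17.4%). The death gene Pmaip1 (Noxa) was at 1.31, 1.16 and 1.46 with both agents and -0.57, -0.54 and -0.56 with BDNF (1.87 ± 0.10). Bbc3 (Puma) fell (-0.80 ± 0.077).

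Of 47 cell cycle genes, 13 rose (27.7%) and 3 fell (6.38%), against 12.2% and 14.9% of all genes. Ccne2, a cyclin E, was at 0.75, 0.67 and 0.70 with both agents and -1.29, -0.93 and -0.74 with BDNF (1.69 ± 0.14), the replication clamp Pcna rose by 1.07 ± 0.052 and the inhibitor Cdkn1c by 1.38 ± 0.21, and the inhibitor Cdkn1b fell (-0.77 ± 0.092). Of 22 clock genes, 7 fell (31.8%) and 2 rose (9.09%). The repressor gene Per2 was at 0.70, 0.73 and 0.60 with both agents and 1.67, 1.52 and 1.64 with BDNF (-0.93 ± 0.065). Bhlhe40 (-0.80 ± 0.12), Cry1 (-0.57 ± 0.088) and Csnk1d (-0.56 ± 0.067) fell with it. Of 12 ID and HES or HEY repressors, 3 rose (25%) and 0 fell. Id4 led, at 1.62, 1.57 and 1.56 with both agents and -0.04, -0.10 and 0.03 with BDNF (1.62 ± 0.094). Without the 2 arrays that stood apart, 4 clock genes rose and 5 of these repressors rose, as did 3012 of all 18194 genes. Of 23 cholesterol synthesis genes, 10 fell (43.5%) and 4 rose (17.4%). Cyp51 (-0.62 ± 0.062) and the regulator Srebf2 (-0.52 ± 0.057) fell, and Idi1 (0.95 ± 0.10) and Insig1 (0.87 ± 0.075) rose. For Srebf2, 1 of 2 probe sets was called (-0.93 and -0.11).

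Of 54 voltage-gated channels, 11 fell (20.4%) and 4 rose (7.41%), against 14.9% and 12.2% of all genes, and the median was 0.03. After Kcnf1, Kcns2 and Kcna4 came Kcna1, the Kv1.1 subunit, at -0.04, 0.04 and -0.23 with both agents and 1.26, 1.07 and 1.19 with BDNF (-1.25 ± 0.12), whose 4 probe sets ran from -1.75 to 0.016. Of 41 postsynaptic proteins, 7 fell (17.1%) and 3 rose (7.32%). Baiap2, the scaffold IRSp53, was at 2.25, 2.24 and 2.27 with both agents and 0.64, 0.61 and 0.67 with BDNF (1.61 ± 0.053), Homer1 rose by 0.70 ± 0.057, and the synapse organizers Lrrtm4 (-1.19 ± 0.32) and Slitrk5 (-0.58 ± 0.14) fell. For Lrrtm4, 1 of 2 probe sets was called. When the 2 arrays that stood apart were left out, 9 channels and 8 postsynaptic genes rose, and 13 and 7 fell. Over all 18194 genes 3012 then rose and 3155 fell. Of 38 presynaptic proteins, 3 rose and 3 fell (7.89% each), below the shares of all genes. Among them were the vesicle proteins Vamp1 (0.74 ± 0.064) and Sv2c (-0.65 ± 0.11).

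Glutamate receptors had 2 of 22 higher (9.09%) and 1 lower (4.55%), below the 12.2% and 14.9% of all genes. The NMDA receptor subunit gene Grin2c led the rises (0.47 ± 0.12). The metabotropic receptor gene Grm8 was the one that fell (-0.28 ± 0.10), and it lost its call under 7 of the settings tried, with values down to -0.18 (adjusted p = 0.244) without BDNF with IBET858 replicate 2. GABA genes had 2 of 15 higher (13.3%, near the share of all genes), Gabrb1 (0.26 ± 0.10) and Gabrb2 (0.17 ± 0.062), and 0 lower. Both lost their calls in several fits. Gabrb1 did so with any 1 of the 6 arrays left out (adjusted p = 0.119 without BDNF with IBET858 replicate 1). Gabrb2 did so without that array (adjusted p = 0.201). Without the 2 arrays that stood apart, 6 glutamate receptor genes were called higher, and 3 GABA genes were called lower. That fit called 3012 higher and 3155 lower of all 18194 genes. Of 24 neuropeptide genes, 4 rose (16.7%) and 2 fell (8.33%). Adcyap1, which encodes the peptide PACAP, was at 0.03, -0.03 and 0.06 with both agents and 1.68, 1.73 and 1.63 with BDNF (-1.66 ± 0.32; interaction -1.77 ± 0.46, or -1.09 without the 2 arrays that stood apart), while Chga (1.00 ± 0.059), Gal (0.98 ± 0.17) and Tac1 (0.45 ± 0.067) rose. With the 2 arrays that stood apart left out, 6 of these genes rose and 5 fell. Of 43 axon guidance genes, 7 rose (16.3%) and 5 fell (11.6%). The ephrin gene Efnb2 (1.11 ± 0.10) and the netrin receptor gene Unc5b (0.77 ± 0.078) were higher. The semaphorin receptor gene Nrp1 was lower, at -0.07, -0.06 and -0.04 with both agents and 1.04, 1.00 and 1.12 with BDNF (-1.11 ± 0.25).

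Of 59 very long neuronal genes, 9 rose (15.3%) and 3 fell (5.08%), with a median of 0.10. Without the 2 arrays that stood apart, 20 and 4 were called, in a fit that called 3012 and 3155 of all 18194 genes. Kirrel3 (-0.59 ± 0.17) and Lrp1b (-0.55 ± 0.10) fell, Lrp1b with 1 of 3 probe sets called and values from -1.37 to -0.067, and Kirrel3 lost its call without BDNF with IBET858 replicate 2 (-0.52, adjusted p = 0.0555). Of 49 autism-associated genes, 12 fell (24.5%) and 5 rose (10.2%), against 14.9% and 12.2% of all genes, and the median was -0.01. Leaving out the 2 arrays that stood apart gave 13 lower and 10 higher. Dyrk1a, a kinase gene, was at -0.54, -0.59 and -0.65 with both agents and 0.27, 0.25 and 0.27 with BDNF (-0.86 ± 0.12; adjusted p = 4.67e-06). Ptchd1 (-0.82 ± 0.10), Pogz, a chromatin regulator (-0.74 ± 0.057), and Naa15, a subunit of an N-terminal acetyltransferase (-0.67 ± 0.071), were the other 3 with the largest changes. None of these 4 had overlapping groups. For Pogz, 2 of 4 probe sets were called, with values from -1.49 to -0.00049. Of 94 respiratory chain genes 5 rose (5.32%) and 3 fell (3.19%). Of 45 cytosolic ribosomal protein genes 5 rose (11.1%) and 2 fell (4.44%). These shares lie below those of all genes. The respiratory chain counts were 9 and 5 with the 2 arrays that stood apart left out.

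Marker genes of other cell types were read in the same way. In a bulk culture, fewer cells of a type and less RNA per cell cannot be told apart. Of 18 neuron markers, 5 rose (27.8%) and 0 fell, against 12.2% and 14.9% of all genes. They were led by the neurofilament genes Nefl, at 1.32, 1.26 and 1.30 with both agents and -0.25, -0.31 and -0.21 with BDNF (1.55 ± 0.11), and Nefm (1.25 ± 0.10). Of 21 excitatory neuron markers, 5 fell (23.8%) and 2 rose (9.52%), with Fezf2 (-0.83 ± 0.15) and Neurod6 (-0.81 ± 0.14) lowest. The median of this list was 0.05, as over all genes, and no member rose by more than 0.28. Of 18 interneuron markers, Dlx5 (0.69 ± 0.11) and Dlx2 (0.63 ± 0.085) rose (11.1%) and 0 fell, while 2 others fell without the 2 arrays that stood apart. Vascular and mesenchymal markers had 5 of 17 higher (29.4%) and 0 lower. Their mean centred value was 0.34 to 0.41 on the arrays with both agents and -0.0070 to 0.0057 on the BDNF arrays, with Pecam1 far ahead of Tagln (0.58 ± 0.11), Acta2 (0.32 ± 0.093), Dcn (0.25 ± 0.089) and Col1a1 (0.20 ± 0.062). Acta2 lost its call without BDNF with IBET858 replicate 2 (adjusted p = 0.053) and without BDNF replicate 1 (adjusted p = 0.0598). The other endothelial markers of that list did not pass the test, among them Cdh5, an endothelial cadherin (0.06; adjusted p = 0.624), the receptor gene Flt1 (-0.03; adjusted p = 0.826) and the tight junction gene Cldn5 (0.16; adjusted p = 0.277).

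In the remaining lists few markers were called. Microglia markers had 2 of 15 higher (13.3%, near the 12.2% of all genes), Cd68 (1.08 ± 0.089) and Itgam (0.61 ± 0.083), and 0 lower. The list's mean was 0.28 to 0.50 on the arrays with both agents and 0.16 to 0.24 on the BDNF arrays. Astrocyte markers had 1 of 15 higher (6.67%) and 0 lower. It was Sox9 (1.02 ± 0.14, with 3 probe sets that ran from -0.31 to 1.89, 2 of them called). Progenitor markers had 1 of 13 lower (7.69%, against 14.9% of all genes), Vim (-0.71 ± 0.075), and 0 higher (1 without the 2 arrays that stood apart). Oligodendrocyte markers had 1 of 13 higher (7.69%), Mobp (0.23 ± 0.062). The list means were 0.15 to 0.25 with both agents and 0.064 to 0.15 with BDNF for astrocyte markers, 0.15 to 0.23 and 0.11 to 0.19 for progenitor markers, and 0.015 to 0.12 and -0.026 to 0.079 for oligodendrocyte markers. The ranges for oligodendrocyte and progenitor markers overlapped between the groups. With centred values no marker can be said to be at 0, and the part of these cells in the results was not tested.

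The same comparison at 12 h used other arrays and called 3848 genes higher (21.1%) and 4663 lower (25.6%). Of the genes that rose at 2 h, 1145 also rose at 12 h, 51.8% of the 2 h list and 29.8% of the 12 h list, and 156 fell. Of those that fell at 2 h, 1205 also fell at 12 h (44.4% and 25.8% of the lists) and 642 rose. Across genes the log2 changes at the 2 times had a Pearson correlation of 0.353 and a Spearman correlation of 0.282. The difference between times was called in 7326 genes (40.3%), 3517 more positive (19.3%) and 3809 more negative (20.9%) at 12 h.

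Rrad had the largest such difference. At 2 h it was lower with both agents, and at 12 h it was at 3.22, 3.20 and 3.26 with both agents and 1.12, 1.02 and 1.28 with BDNF, a rise of 2.09 ± 0.11 (difference between times 4.45 ± 0.15). Cavin2, Grk5, Gxylt2 and Pim1 rose at 12 h by 3.48, 3.13, 2.80 and 2.83, where at 2 h they were at 0.35, -0.14, -0.30 and -0.23, of which only Cavin2 was called (adjusted p = 0.0142), and not without BDNF replicate 1 (0.25, adjusted p = 0.105) or BDNF with IBET858 replicate 1 (adjusted p = 0.0761). Pim1, a kinase gene that BDNF raises, had 2 h values of 2.49, 2.48 and 2.36 with both agents and 2.71, 2.62 and 2.68 with BDNF. Tmem74, so low at 2 h, was at 0.14 ± 0.10 at 12 h (adjusted p = 0.293).

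In the other direction, Pecam1 was at -0.03, 0.02 and 0.04 with both agents and -0.31, 0.03 and -0.26 with BDNF at 12 h, a change of 0.19 ± 0.12 (adjusted p = 0.232), and Rcc1 rose by 0.69 there against 3.71 at 2 h. Tmem54 was at 0.08 ± 0.15 (adjusted p = 0.722) at 12 h. Chrna1, Rgs13 and Stum fell at 12 h (log2 changes -3.23, -3.82 and -2.99) without a call at 2 h (0.21 ± 0.13, -0.43 ± 0.47 and 0.05 ± 0.16), and Gask1b, which fell by 0.91 at 2 h, was at -3.94 at 12 h. H2bc18 (3.05), Hexim1 (2.35), Cxcr4 (-2.91) and Bdnf (-0.71) kept their direction and their call at 12 h. Glutamate receptors, with 3 of 22 called at 2 h, had 14 lower (63.6%, against 25.6% of all genes) and 0 higher at 12 h. GABA genes had 10 of 15 lower there (66.7%) and 0 higher. The difference between times was called more negative in 14 and 8 of them. The poly-A control transcripts were at 0.357 to 0.591 on the 12 h arrays with both agents and at -0.124 to 0.0307 on the 12 h BDNF arrays, and their part in the 12 h values was not tested.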

How the data were processed

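Each of 24 Affymetrix arrays measured the RNA of 1 mouse cortical neuron sample, with 8 groups of 3. The deposited values are log2 intensities made with RMA, per the submitters' processing notes, and no version is given in the sources used here. In the deposited table every one of the 45101 probe sets had a median of 0 over the 24 arrays (tolerance 1e-06), so the values had been centred per probe set, and the log base was taken as 2 from RMA. Because the values are centred, no probe set could be filtered for low signal, and precision is limited by how many arrays there are.

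Probe sets were named through the platform annotation: 34958 had 1 gene symbol, 932 had several and 9211 were not listed. Symbols were updated through the Entrez identifier, which matched for 34754. All probe sets that named 1 gene alone were averaged, giving 18194 genes, and 9012 genes rest on several probe sets. limma 3.58.1 in R 4.3.3 fitted a mean for each of the 8 groups over all 24 arrays (lmFit and eBayes, 16 residual degrees of freedom), and a gene was called at a Benjamini-Hochberg adjusted p under 0.05 over all genes. The contrasts were BDNF with IBET858 against BDNF at 2 h, the same at 12 h, IBET858 against DMSO and BDNF against DMSO at 2 h, the interaction and the difference between times. Errors on log2 changes are standard errors of this fit. Gene lists (37) were described by counts and medians without a test.

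Replicate numbers did not pair the arrays: deviations of same-numbered arrays from their group means correlated between -0.0338 and 0.0239 over 3 pairs. Tested on simulated data with 18194 genes for this comparison, the fit recovered 83 of 100 genes changed by 0.5 on the log2 scale and 99 of 100 changed by 1, and called 8 unchanged genes.

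The genes named with values, 188 in all, are the 14 highest and 14 lowest called genes without overlapping groups, the 6 highest and 6 lowest of the interaction and of the difference between times, the 6 called in opposite directions with and without BDNF, up to 4 members of each list with the largest change, and Bdnf, Ntrk2, Fos, Arc, Egr1, Npas4, Brd2, Brd3, Hexim1 and Myc. Another item of the naming rule is not reported here. Ccnt1, Ccnt2, Dcn, Col1a1, Cdh5, Flt1 and Cldn5 were named after their values were seen. The members and the lists were chosen with earlier results of these data known. Promoters come from RefSeq, build GRCm38.p6. The alternatives tried were other sets of arrays, a replicate block, array weights, robust variances, centring each array, other summaries of probe sets and leaving out each of the 6 arrays.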

Additional observations from a re-analysis of the deposited data

Results flagged for a closer look

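The effect of IBET858 with BDNF differed from its effect without BDNF at 2 h, by the interaction term of the limma fit, in 1529 genes. Among the 14 genes that rose furthest with BDNF, the difference (with minus without BDNF, log2) passed the test in 11: Rcc1 2.76, Caprin2 2.66, Pecam1 3.41, Depdc7 0.72, Fam83d 2.00, H3c4 1.00, Ckmt2 1.23, Polg2 2.11, Adam17 2.12, Taf4b 1.36 and Hspa1b 0.93. In these 11 genes the rise was larger in the presence of BDNF. Without the 2 arrays that stood apart it passed in 13, with H2bc18 at 1.08 (adjusted p = 0.0184) and Hexim1 at 0.56 (adjusted p = 0.000266) added. Among the 14 that fell furthest it passed in 14: Cxcr4 -2.04, Tmem74 -1.95, Nab2 -1.84, Tent5a -1.42, Kcnf1 -1.62, Rrad -2.42, Mir124a-1hg -0.67, Ccsap -1.27, Rbm24 -1.06, Kcns2 -0.78, Kcna4 -1.10, Naf1 -0.74, Lrrc4 -1.09 and Zfp667 -0.95. The fall was larger in the presence of BDNF in each of them. Over all genes 3.11% were called more positive and 5.29% more negative in the interaction. Both sets of 14 were picked on the change with BDNF, which is 1 term of this difference. That choice by itself favours a larger change with BDNF, so these tallies are no separate support. Other genes with a large difference were Tmem54 2.68, Zmym1 2.15, Ier5l -2.38 and Rasl11a -1.92. The genes called in opposite directions differed by 1.31 for Ddx23, 1.46 for Mettl18, -1.06 for Rgs16, 1.33 for Tmem168 and 0.87 for Haus3.

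The effect of IBET858 in BDNF cultures also differed between 12 h and 2 h, by the test of that difference, in 7326 genes. The named differences (12 h minus 2 h, log2) were Rrad 4.45, Grk5 3.27, Cavin2 3.13, Gxylt2 3.10, Pim1 3.06 and Tmem74 2.82 on the higher side. On the lower side they were Pecam1 -3.45, Chrna1 -3.44, Rgs13 -3.40, Stum -3.04, Gask1b -3.04 and Rcc1 -3.02.

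Probe sets that the annotation used here does not list stay outside the gene table. Of 9160 such probe sets, 1713 were called in BDNF with IBET858 against BDNF at 2 h, 901 higher and 812 lower, with changes up to 4.53 and down to -2.97 on the log2 scale. Of the 18194 genes, each the mean of its probe sets, 4928 were called in the same comparison (27.1%). The unlisted probe sets were tested among themselves and are unnamed here.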

How the results depend on the processing

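Of the 188 named genes, 152 were called and 142 of those stayed called in every alternative run on them; the exceptions were Cavin2, Cxcl10, Id1, Grm8, Gabrb1, Gabrb2, Vamp2, Kirrel3, Acta2 and Cox7b2. Genes called higher and lower numbered 2782 and 2905 with only the 6 arrays, 2323 and 2695 with the 12 arrays at 2 h, 3159 and 3254 with array weights, 2183 and 2705 with robust variances, 1784 and 2968 with each array centred on its median, 2072 and 2528 with the median of the probe sets, and 2725 and 3317 when any probe set counted. Leaving out 1 of the 6 arrays gave 1720 to 2077 higher and 2387 to 2480 lower, 442 to 516 and 771 to 874 for the interaction, and 3295 to 3359 and 3486 to 3698 for the difference between times. Array weights gave 1199 and 1533 genes for the interaction, and the cause was not tested. Called and over 1.5-fold, which by construction counts fewer genes, were 477 and 772 in the main comparison, 225 and 297 in the interaction, and 1627 and 1581 between times; list medians and single genes have no value under it. The replicate block gave 2090 and 2627 genes, and 509 and 863 for the interaction; same-numbered arrays share only a number, and under it Grm8, Gabrb1 and Gabrb2 lost their calls. Among uncalled genes, Gphn turned to 0.13 with the median of the probe sets and Myc to -0.0015 without BDNF replicate 1, where its other values reached 0.063 without BDNF replicate 3. Refitting IBET858 or BDNF against DMSO without the 2 arrays that stood apart was chosen after seeing the data. For centred values the signal over background is unknown, so genes near background cannot be told from others.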

Other observations

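Several gene families, most of them outside the lists, had most of their called members on one side. They were chosen after their values were seen, so their counts are descriptions, beside 12.2% higher and 14.9% lower of all genes. Of 40 Zbtb genes, which encode zinc finger factors with a BTB domain, 23 fell and 1 rose with BDNF and IBET858 against BDNF at 2 h, with Zbtb39 at -1.20 ± 0.071 and Zbtb2 at -1.12 ± 0.069. Of 16 Krüppel-like factors 10 fell and Klf2 alone rose, and Klf16 was at -1.18 ± 0.085 and Klf13 at -0.95 ± 0.069. Without BDNF, IBET858 lowered 17 of the Zbtb genes and raised 1. It lowered 5 of the Krüppel-like factors and raised 3, against 9.27% lower and 5.64% higher of all genes. Of 10 Frizzled receptors for Wnt ligands 6 rose and 1 fell, with Fzd7 at 1.29 ± 0.081, Fzd8 at 1.23 ± 0.082 and Fzd1 at 1.12 ± 0.078, and Fzd3 lower at -0.39 ± 0.086. Of 16 integrin alpha subunits 6 rose and 0 fell, led by Itga10 at 0.82 ± 0.10. IBET858 without BDNF raised 5 of the 10 Frizzled receptors and 2 of these integrins, and lowered 0 of either.

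Families of RNA and protein processing genes had their called members mostly on the lower side. Of 11 Utp factors of ribosomal RNA processing 7 fell and 0 rose, with Utp14b at -1.17 ± 0.10 and Utp3 at -0.80 ± 0.067, and of 10 RNA exosome subunits 5 fell and 0 rose, with Exosc3 at -0.90 ± 0.076. N-terminal acetyltransferase subunits had 7 of 10 lower and 0 higher, nucleoporins 7 of 19 lower and 0 higher, and ubiquitin-specific peptidases 19 of 51 lower and 3 higher.

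For 10 genes with a rise and a positive interaction, the neighbours among the genes tested were read, 19 in all. Of these 9 rose, 2 fell and 8 did not pass the test, where 12.2% of all genes rose and 14.9% fell. Among the 9 was Hspa1a, whose probe sets may also read its neighbour Hspa1b. On the same strand, Ipo8 beside Caprin2 was at 1.59 ± 0.064 with BDNF and -0.09 without, and Rnf19b beside Tmem54 was at 1.57 ± 0.064 with BDNF and 0.58 without. Beside Rcc1, Trnau1ap was at 0.79 ± 0.055 with BDNF and 0.04 without, and Snhg3 at 1.75 ± 0.086 and 1.03. Ddx5 beside Polg2 was at 0.59 ± 0.085 with BDNF and 0.13 without. Milr1, which lies between Polg2 and Pecam1 among the genes tested, was at -0.01 ± 0.10 with BDNF and did not pass the test. Zcchc9 beside Ckmt2 fell (-0.93 ± 0.11), and both neighbours of Fam83d, Ppp1r16b (0.08 ± 0.073) and Dhx35 (-0.07 ± 0.081), Ywhaq beside Adam17 (0.08 ± 0.051) and Sinhcaf beside Caprin2 (0.28 ± 0.18) did not pass the test. The nearest upstream gene lay on the same strand for 27 of 38 genes with an interaction over 2-fold upward (71.1%), 24 of 52 downward (46.2%), 212 of 355 genes that rose over 1.5-fold at 2 h (59.7%) and 299 of 608 that fell (49.2%), against 6935 of 13259 of all genes (52.3%). These counts were made after the values were seen, and the part of neighbouring transcripts in these values was not tested.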
